A study of Mus musculus with 2 samples.

Results

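The Fc gamma receptors are the proteins through which leukocytes bind the constant part of IgG, and 6 genes of this system were followed here in salivary gland cells of the mouse. They were the activating receptors *Fcgr1*, *Fcgr3* and *Fcgr4*, the inhibitory receptor *Fcgr2b*, the signalling chain *Fcer1g* and the neonatal Fc receptor *Fcgrt*. The members were taken by symbol, and each of the 6 had 1 row among the 50768 genes of both matrices. 2 single-cell libraries (10x Genomics, UMI counts) were compared, 1 from NOD/ShiltJ glands (the genetic model) and 1 from CD1 glands (the control). NOD/ShiltJ is an inbred strain that develops autoimmune diabetes and lymphocytic infiltration of its salivary glands, whereas CD1 is an outbred stock. Both groups were untreated female mice of 20 weeks, and the submandibular gland was harvested with the adjoining sublingual gland. Each library pooled several mice (4 by the study's methods, 3 by the sample labels), so that mice cannot be told apart within a library. Epithelial and red blood cells were depleted with antibodies to EpCAM and Ter119, and shares of cells therefore describe the depleted suspension.

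With 1 library per strain no test was possible. Levels are counts per 1000000 UMIs (CPM), summed over the cells of a class. The 95% intervals given with them, and with log2 ratios of NOD over CD1, cover counting error only and not the spread between cells or mice. Barcodes with at least 500 UMIs and 300 genes were kept, 6500 in NOD (median 5720 UMIs) and 7014 in CD1 (median 6495 UMIs), and 18 kept barcodes occurred in both libraries. A barcode was placed in a class by 15 lists of 8 marker genes, which hold no member. A class needed UMIs of at least 3 of its markers, and at least 2 more than of any other list. This gave 686 macrophage-like cells in NOD and 2892 in CD1, 575 and 368 NK-like, 857 and 7 B-like, 1886 and 91 T-like, and 999 and 2759 endothelial-like cells, while 1333 and 806 barcodes stayed unplaced. All 8 macrophage markers had UMIs in the macrophage-like cells of both libraries, and their summed level was alike (13495 CPM in NOD, 13459.8 CPM in CD1). The NOD macrophage-like cells were shallower, with a median of 3365 UMIs against 7120 in CD1.

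Fc gamma receptors couple antibody to the cells that act on it. The activating receptors bind IgG outside the cell and signal through the ITAM of the Fcer1g chain to Syk and related kinases, which drives phagocytosis, cytokine release and killing by NK cells. *Fcgr2b* carries an ITIM that recruits the phosphatase SHIP1 (*Inpp5d*) and damps those signals, so that the balance between activating and inhibitory receptors sets how strongly a macrophage answers immune complexes. *Fcgrt* encodes the heavy chain of FcRn, which pairs with beta-2-microglobulin and returns IgG and albumin from endosomes to the blood rather than to the lysosome. *Fcgr1* and *Fcgr4* are inducible by interferon-gamma. Inbred strains carry different alleles of these genes, and reads of both strains were counted against a common reference, so that a difference in level and a difference in how an allele's reads map cannot be told apart here.

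The reference promoters of the 4 Fc gamma receptors are shown because *Fcgr1* and *Fcgr4* were the members that were higher in NOD macrophage-like cells and *Fcgr2b* the one that was lower by the largest ratio. Each runs from 250 bases before the start of transcription to 50 bases after it, 5′ to 3′ on the strand of the gene, from RefSeq on GRCm38.p6. This is reference sequence and not that of NOD or CD1 mice. Capitals mark a GAS motif, the palindrome TTCNNNGAA known from genes induced by interferon-gamma, or the core GAGGAA of PU.1, the myeloid factor encoded by *Spi1*, which reads TTCCTC on the other strand. Both strands were searched, and no matches overlapped.
Fcgr1 (chr3:96293920-96294219, minus strand): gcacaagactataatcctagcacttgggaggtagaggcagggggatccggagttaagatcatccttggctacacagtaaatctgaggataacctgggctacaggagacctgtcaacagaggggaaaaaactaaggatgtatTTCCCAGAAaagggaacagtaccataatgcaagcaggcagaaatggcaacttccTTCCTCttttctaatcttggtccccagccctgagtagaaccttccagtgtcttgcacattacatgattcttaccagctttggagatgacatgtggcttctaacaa
Fcgr4 (chr1:171018676-171018975, plus strand): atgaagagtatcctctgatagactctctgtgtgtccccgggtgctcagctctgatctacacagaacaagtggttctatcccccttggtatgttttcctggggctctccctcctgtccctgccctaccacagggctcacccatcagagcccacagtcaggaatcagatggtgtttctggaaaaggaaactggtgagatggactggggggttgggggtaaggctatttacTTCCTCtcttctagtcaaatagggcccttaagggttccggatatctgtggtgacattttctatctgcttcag
Fcgr3 (first of 2 listed start sites, chr1:171059354-171059653, minus strand): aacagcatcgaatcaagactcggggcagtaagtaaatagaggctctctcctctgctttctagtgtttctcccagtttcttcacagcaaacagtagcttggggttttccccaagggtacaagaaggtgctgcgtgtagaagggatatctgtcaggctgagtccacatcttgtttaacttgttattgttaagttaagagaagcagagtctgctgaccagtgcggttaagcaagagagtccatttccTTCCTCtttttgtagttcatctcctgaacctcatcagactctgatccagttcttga
Fcgr2b (chr1:170976022-170976321, minus strand): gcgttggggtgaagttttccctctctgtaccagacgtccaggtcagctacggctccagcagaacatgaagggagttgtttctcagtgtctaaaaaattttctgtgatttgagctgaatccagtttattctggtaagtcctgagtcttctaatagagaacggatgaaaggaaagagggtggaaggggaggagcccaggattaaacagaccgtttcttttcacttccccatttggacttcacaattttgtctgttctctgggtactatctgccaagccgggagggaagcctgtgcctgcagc
The GAS motif occurred in the *Fcgr1* window alone among the members, starting 109 bases before the start site, and 8.3% of 32851 mouse promoters of this length held it. The PU.1 core occurred in the windows of the 3 activating receptors, 55 bases before the start in *Fcgr1*, 22 in *Fcgr4* and 6 in *Fcgr3*, and 28.3% of promoters held it. The windows of *Fcgr2b*, *Fcer1g* and *Fcgrt* held neither run of letters. These matches describe the sequence and were not tested for binding.

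*Fcgr3* and *Fcgr2b* encode nearly identical extracellular parts, so their counts were checked for shared sequence. Their longest coding transcripts (1347 and 3544 bases, GENCODE models) shared 166 windows of 50 bases, which are 12.8% of the *Fcgr3* windows and 4.75% of the *Fcgr2b* windows. The last 500 bases of each, where reads of a 3′ library start, shared 0 windows with any other member. No other pair of members shared a window.

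The members divided the cell classes in a way that differed by gene and was similar in both strains. *Fcgr1*, the high-affinity receptor for monomeric IgG2a/c, was a macrophage transcript, at 668 CPM in the NOD library and 413 CPM in the CD1 library in macrophage-like cells. In NK-like, T-like and endothelial-like cells it lay between 1.90 and 3.85 CPM in both libraries, and in NOD B-like cells it was 2.48 CPM. *Fcgr4*, which binds IgG2a/c and IgG2b complexes, had the same distribution, at 165 and 41.4 CPM in macrophage-like cells and at most 1.24 CPM in NK-like, T-like, B-like and endothelial-like cells. *Fcgr3*, the low-affinity activating receptor, reached 293 and 284 CPM in macrophage-like cells and 19.3 and 24.6 CPM in NK-like cells, and lay at or below 5.13 CPM in the T-like and endothelial-like cells. *Fcgr2b* was found in macrophage-like cells (28.1 and 48.0 CPM) and in B-like cells (76.0 CPM in NOD). The 59 NOD fibroblast-like cells had it at 26.7 CPM (14.6 to 44.8), from 14 UMIs in 7 cells. That interval overlapped that of macrophage-like cells and held the 20.0 CPM of the NOD droplets without cells. The 18 CD1 fibroblast-like cells held 1 UMI of *Fcgr2b*. *Fcer1g* was shared by macrophage-like cells (1333 and 1379 CPM) and NK-like cells (823 and 1176 CPM). *Fcgrt* had another order, with fibroblast-like cells at 200.1 CPM in NOD, endothelial-like cells at 76.0 and 82.7 CPM, macrophage-like cells at 43.2 and 54.5 CPM and B-like cells at 19.7 CPM in NOD. In that order of *Fcgrt* no neighbouring NOD intervals overlapped. The droplets without cells held *Fcgrt* at 22.9 CPM in NOD, above the B-like value. They held *Fcgr3* at 21.0 CPM in NOD and 93.8 CPM in CD1, above the NK-like values.

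**Figure D1:**
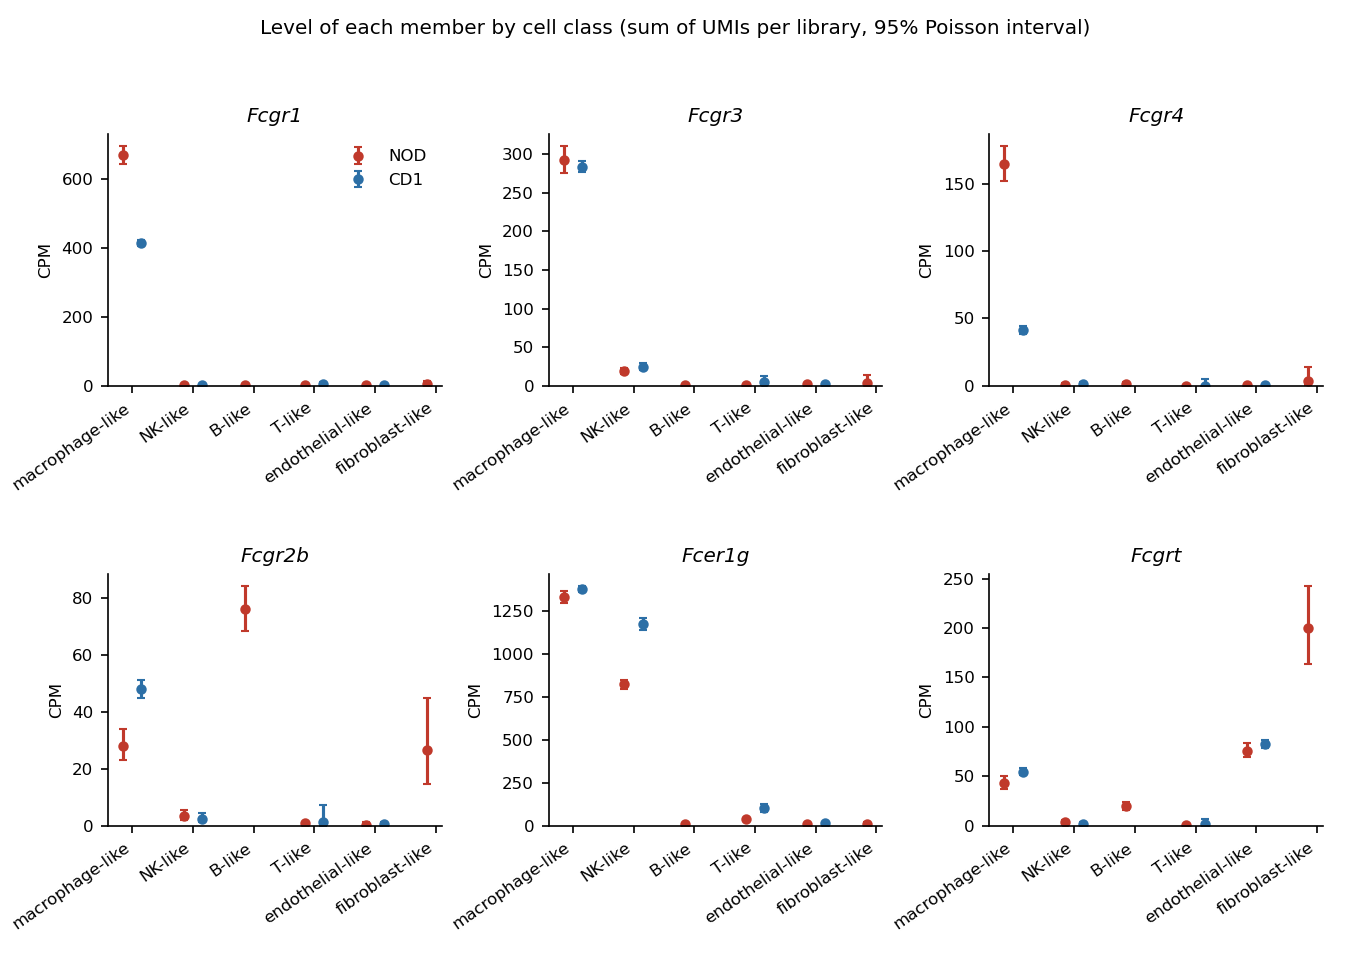
Level of each member (CPM, linear axis from 0) in 6 cell classes of the NOD (red) and CD1 (blue) libraries, as sums over all cells of a class with exact 95% Poisson intervals. Classes with under 50 cells in a library are left out, so that B-like and fibroblast-like cells show NOD alone. *Fcgr1* and *Fcgr4* stand above the other classes in macrophage-like cells, *Fcer1g* in macrophage-like and NK-like cells, and *Fcgrt* in fibroblast-like and endothelial-like cells.

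The rarer myeloid classes held few cells, and their values are given as UMIs. The 7 monocyte-like cells of NOD held 35 *Fcgr1*, 33 *Fcgr3*, 3 *Fcgr4* and 16 *Fcgr2b* UMIs, and the 5 of CD1 held 3, 13, 0 and 1. Neutrophil-like cells (5 in NOD, 3 in CD1) held 4 and 6 *Fcgr3* UMIs and 0 of *Fcgr1* and *Fcgr2b*. The 25 dendritic-like cells of NOD held 97 *Fcer1g* and 24 *Fcgrt* UMIs. No barcode met the mast cell list, although mast cells are a known site of *Fcer1g*, so that upper Clopper-Pearson bounds on their share were 0.0567% (NOD) and 0.0526% (CD1).

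In macrophage-like cells the activating receptors shifted unequally between the strains. *Fcgr4* was higher in NOD, at 165 CPM (152 to 178, 644 UMIs) against 41.4 CPM (38.6 to 44.3, 821 UMIs), a log2 ratio of 1.99 (1.84 to 2.14) or 3.98-fold. *Fcgr1* was higher in NOD by a log2 ratio of 0.69 (0.63 to 0.76), from 2614 UMIs in NOD and 8185 in CD1. *Fcgr3* had 1146 UMIs in NOD, 5631 in CD1 and a log2 ratio of 0.04 whose interval (−0.05 to 0.14) held 0, but −0.21 (−0.30 to −0.12) with classes from clusters. Of the 6 members 1, *Fcgr4*, was past 2-fold, where 13.5% of the 14508 genes with at least 20 UMIs in these cells were past 2-fold in either direction and 7.25% were higher in NOD. A ratio as high as that of *Fcgr4* was found for 316 of these genes (2.18%), and one as high as that of *Fcgr1* for 11.6%. The median log2 ratio over all these genes was 0.05.

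The inhibitory receptor went the other way. *Fcgr2b* was at 28.1 CPM in NOD (23.1 to 33.9, 110 UMIs) against 48.0 CPM in CD1 (45.0 to 51.1, 951 UMIs), a log2 ratio of −0.77 (−1.07 to −0.48). Of all genes tested, 8.84% had a ratio as low or lower. The common chain *Fcer1g* was at 1333 CPM (5215 UMIs) and 1379 CPM (27347 UMIs), a log2 ratio of −0.05 (−0.09 to −0.01) whose sign turned under 2 of the alternatives that were not void. *Fcgrt*, with 169 and 1080 UMIs, had a log2 ratio of −0.33 (−0.58 to −0.10).

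The direction of each receptor was read again within ranges of UMIs per cell, since NOD cells were shallower. *Fcgr4* had log2 ratios of 2.48, 2.09, 1.86 and 1.99 in cells of 500 to below 2000, 2000 to below 5000, 5000 to below 10000 and at least 10000 UMIs, and the intervals did not reach 0 in any range. *Fcgr1* had ratios of 0.98, 0.67, 0.57 and 0.81, again with all intervals above 0. *Fcgr3* lay between −0.04 and 0.13, and its interval held 0 in all 4 ranges. *Fcgr2b* was less even, with −1.42, −0.87, −1.39 and −0.24, and only the interval of the range from 5000 UMIs (−2.01 to −0.83) lay below 0. In the deepest cells *Fcgr2b* was at 37.2 CPM in NOD and 43.9 CPM in CD1, so that its difference was not detectable there.

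**Figure D2:**
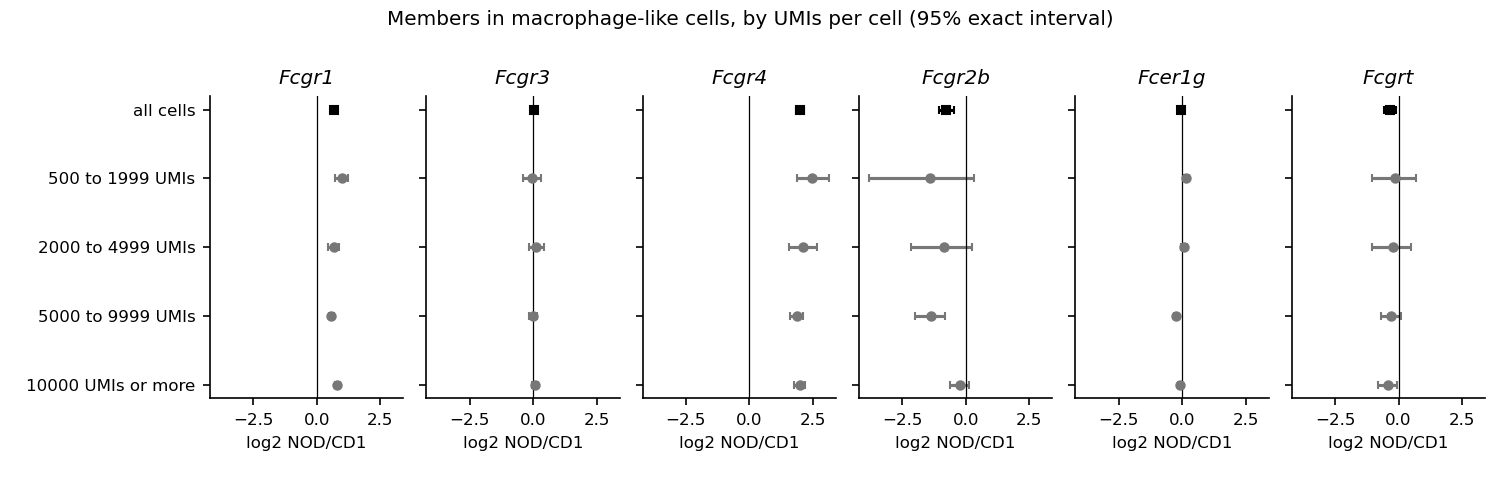
Log2 ratio of NOD over CD1 (x axis) of each member in macrophage-like cells, for all cells (black squares) and within 4 ranges of UMIs per cell (grey points), with exact 95% intervals from counting error. *Fcgr4* and *Fcgr1* lie right of 0 in every range, *Fcgr3* at 0, and *Fcgr2b* left of 0 with intervals that hold 0 in 3 of the ranges.

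The activating receptors were next set against the inhibitory one as a ratio of UMIs, in which scaling cancels. NOD macrophage-like cells held 4404 UMIs of the 3 activating receptors for 110 of *Fcgr2b*, a ratio of 40.0 (33.1 to 48.8). CD1 cells held 14637 for 951, a ratio of 15.4 (14.4 to 16.5). The ratio was 2.60-fold higher in NOD, a log2 difference of 1.38 (1.09 to 1.68). Within the 4 ranges of depth the log2 difference was 2.21, 1.49, 1.90 and 0.93, and each interval lay above 0. It fell between 1.36 and 2.18 over the alternatives that were not void.

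**Figure D3:**
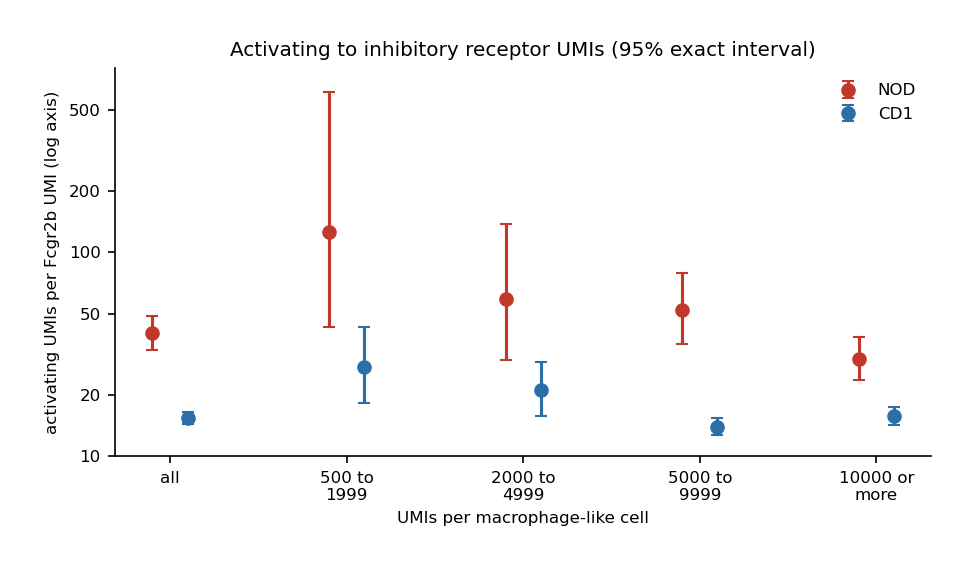
UMIs of *Fcgr1*, *Fcgr3* and *Fcgr4* together per UMI of *Fcgr2b* (log axis) in macrophage-like cells of NOD (red) and CD1 (blue), for all cells and by UMIs per cell, with exact 95% intervals from counting error. NOD lies above CD1 in every range, with the widest intervals in the shallowest cells, where NOD held 3 *Fcgr2b* UMIs.

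The make-up of the activating UMIs also differed. *Fcgr4* made up 14.6% of them in NOD (13.6% to 15.7%) and 5.61% in CD1 (5.24% to 5.99%), and *Fcgr3* 26.0% in NOD and 38.5% in CD1. The share of *Fcgr1* was 59.4% in NOD (57.9% to 60.8%) and 55.9% in CD1 (55.1% to 56.7%). Per UMI of *Fcgr2b* there were 5.85 UMIs of *Fcgr4* in NOD and 0.863 in CD1.

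Dividing macrophage-like cells, set apart by their cell cycle transcripts (31 in NOD, 124 in CD1), were read apart from the others. *Fcgr1* was at 816 CPM in NOD and 351 CPM in CD1 there (log2 1.22, 0.99 to 1.44), a ratio above that of the other macrophage-like cells (log2 0.65, 0.58 to 0.72), and *Fcgr4* at 150.3 and 35.9 CPM (log2 2.06, 1.45 to 2.67). *Fcgr2b* had 10 and 67 UMIs there and a log2 ratio of −0.41 whose interval (−1.54 to 0.56) held 0, against −0.80 (−1.12 to −0.50) in the others. The activating to inhibitory ratio was 34.1 and 12.8, a log2 difference of 1.42 (0.43 to 2.56), beside 1.38 (1.08 to 1.70) in the other macrophage-like cells. *Fcgrt* had 1 UMI in the 31 dividing NOD cells and 56 UMIs in the 124 CD1 cells.

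Cells were then compared at equal depth, by drawing 2000 UMIs from each macrophage-like cell. This left out 239 NOD and 683 CD1 cells. An *Fcgr4* UMI was found in 24.6% of 447 NOD cells (20.7% to 28.9%) and in 7.74% of 2209 CD1 cells (6.66% to 8.94%). An *Fcgr1* UMI was found in 69.6% and 53.4%, and an *Fcgr3* UMI in 44.1% (39.4% to 48.8%) and 40.3% (38.3% to 42.4%). For *Fcgr2b* the shares were 4.25% (2.58% to 6.56%) and 9.46% (8.27% to 10.8%), but 1.02% and 1.66% with overlapping intervals when 500 UMIs were drawn. In T-like cells, which should lack these receptors and had medians of 6608 and 8101 UMIs, none of the 4 receptors exceeded 0.272% in NOD, and CD1 T-like cells held 1 *Fcgr3*-positive cell of 88. Without thinning, the shares of *Fcgr1* were 76.1% and 74.9%, of *Fcgr3* 59.2% and 69.4%, of *Fcgr4* 39.9% and 20.1%, and of *Fcgr2b* 10.5% and 23.2%. The order of the strains for *Fcgr3* thus changed with depth, and no order is read from it.

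At this depth 80.1% of NOD macrophage-like cells (76.1% to 83.7%) and 65.8% of CD1 cells (63.8% to 67.8%) held UMIs of activating receptors and none of *Fcgr2b*. Cells with UMIs of both kinds made up 3.58% and 7.02%, and cells with *Fcgr2b* alone 0.671% (3 cells) and 2.44% (54 cells). An *Fcgr4* UMI was held by 24.8% of NOD cells with an *Fcgr1* UMI and by 24.3% of those without, and by 7.97% and 7.48% in CD1. At 500 UMIs per cell the NOD shares were 12.1% (7.83% to 17.6%) and 6.25% (4.29% to 8.75%), so that no order is read from them. *Fcgr3* was held by 43.7% of CD1 cells with an *Fcgr1* UMI (40.9% to 46.6%) and 36.4% of those without (33.5% to 39.5%), and by 47.6% and 36.0% in NOD with overlapping intervals. At 500 UMIs per cell these shares of *Fcgr3* were 16.5% and 13.8% in CD1 and 14.7% and 14.7% in NOD, with overlapping intervals in both. Cells with UMIs of both kinds made up 0.437% in NOD and 0.380% in CD1 at 500 UMIs per cell. Cells with *Fcgr2b* alone made up 0.583% and 1.28% there. The intervals overlapped for both categories, so that no order of the strains is read from them. Cells with activating receptors only made up 42.0% in NOD (38.3% to 45.8%) and 30.1% in CD1 (28.4% to 31.8%) there.

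**Figure D4:**
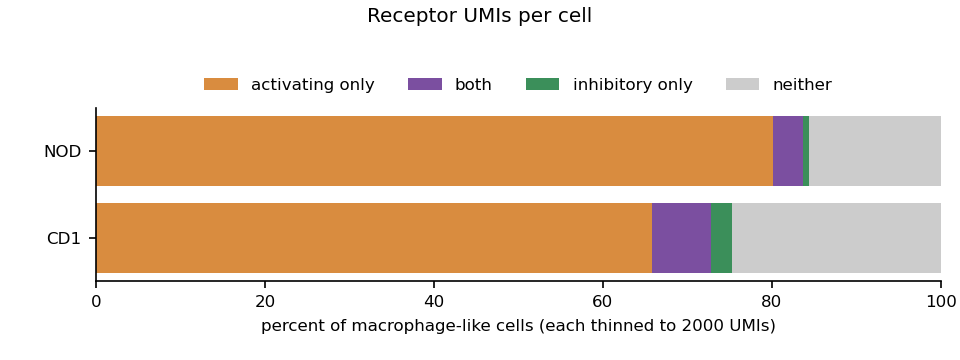
Percent of macrophage-like cells (x axis, each cell drawn down to 2000 UMIs) with UMIs of activating receptors only (orange), of activating receptors and *Fcgr2b* (purple), of *Fcgr2b* only (green) or of neither (grey), in 447 NOD and 2209 CD1 cells. The orange part covers 80.1% in NOD and 65.8% in CD1.

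Since *Fcgr1* and *Fcgr4* are inducible by interferon-gamma, a list of 10 interferon-gamma response genes was read in the same cells. Of these 10 genes 9 were more than 2-fold higher in NOD macrophage-like cells, beside 7.25% of the 14508 genes with at least 20 UMIs there. The tenth (*Irf1*) had a log2 ratio of 0.72, and the median over the list was 1.52. The list summed to 1350.3 CPM in NOD and 375 CPM in CD1. *Cxcl9*, a chemokine for T cells, was at 314 and 32.2 CPM, and *Iigp1*, a GTPase of cell-autonomous defence, at 145 and 3.43 CPM. Within each library the list was higher in cells with an *Fcgr4* UMI than in cells without, at 1741 CPM (1571 to 1924, 110 cells) against 987 CPM (913 to 1065, 337 cells) in NOD and 556 CPM (479 to 640.4, 171 cells) against 350.1 CPM (332 to 369, 2038 cells) in CD1. For *Fcgr1* the values were 1294 against 893 CPM in NOD and 437 against 284 CPM in CD1. For *Fcgr3* they were 1122 against 1212 CPM in NOD, with overlapping intervals, and 403 against 341 CPM in CD1. For *Fcgr2b* they were 526 CPM (321 to 813, 19 cells) against 1201 CPM in NOD and 333 against 370 CPM in CD1, the latter with overlapping intervals. Cells of a library are not replicates, and these values describe the libraries. No gene outside these receptors was read in this way, so that no background is given. An effect of interferon-gamma on the receptors was not tested.

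**Figure D5:**
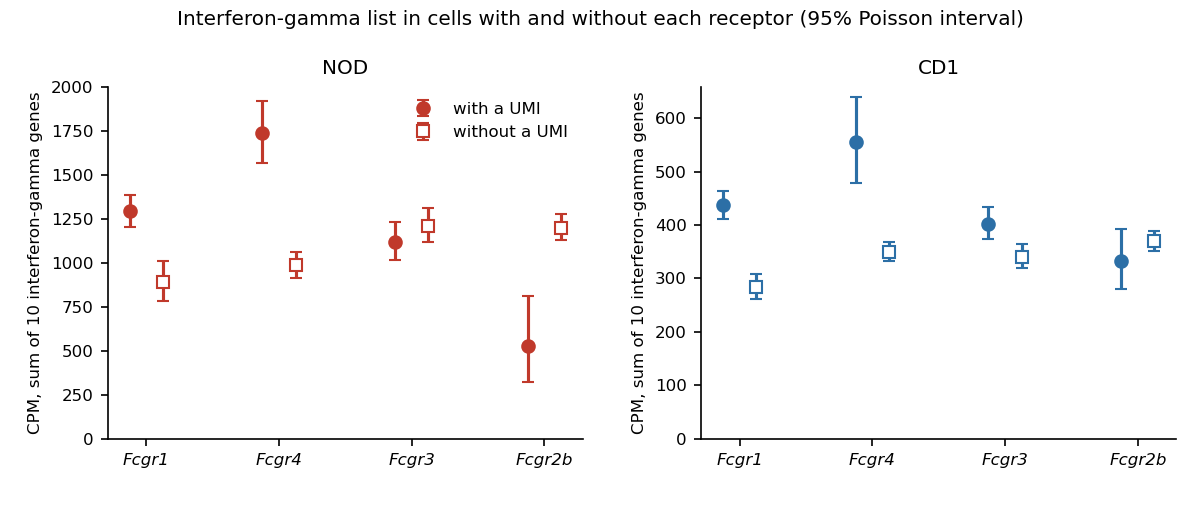
Summed level of 10 interferon-gamma response genes (CPM, linear axes from 0 that differ between the panels) in macrophage-like cells drawn down to 2000 UMIs, with a UMI of each receptor (filled circles) or without (open squares), in NOD (left, red) and CD1 (right, blue), with exact 95% Poisson intervals. In both libraries the filled circles stand above the squares for *Fcgr4* and *Fcgr1*.

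Signalling genes downstream of the receptors were read from lists, beside the 13.5% of all genes past 2-fold and the median of 0.05 in these cells. None of the 13 genes of the activating cascade was past 2-fold, and their median log2 ratio was 0.20. *Syk*, the kinase that docks on the phosphorylated ITAM, was at 185 and 131 CPM (log2 0.50, 0.38 to 0.62), and *Lyn*, a kinase that phosphorylates both ITAM and ITIM, had a log2 ratio of 0.45. Of 8 genes of the inhibitory arm 1 was past 2-fold (median over the 8 of 0.03). Both counts are near the share over all genes, and nothing particular to these lists is read from them. *Inpp5d* was at 834 and 794 CPM (log2 0.07) and *Ptpn6*, the phosphatase SHP-1, had a log2 ratio of −0.12. The gene past 2-fold, *Dok2*, an adapter that damps kinase signalling, was at 9.46 and 3.73 CPM (log2 1.34, 0.73 to 1.93).

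Other chains and receptors were read from lists as well. *Tyrobp*, the ITAM chain DAP12, was at 1702 and 2063 CPM (log2 −0.28). *Cd247*, the zeta chain of T and NK cells, was at 11.5 and 1.46 CPM (log2 2.98). It was the only one of 3 adapters with at least 20 UMIs past 2-fold, beside 13.5% of all genes. Among 4 measured receptors that pair with the Fcer1g chain, 2 were within 2-fold. *Clec4n* (Dectin-2, a receptor for fungal mannans) was at 4.86 and 1.26 CPM (19 and 25 UMIs). *Ncr1* (the NK receptor NKp46) was at 10.7 and 2.87 CPM (42 and 57 UMIs). With so few genes, no result about these lists is read from the counts. The 8 T cell markers summed to 46.3 CPM in NOD and 5.80 CPM in CD1 macrophage-like cells, all 8 detected in both, and the 8 NK markers to 211 and 179 CPM. The part of such transcripts in the values of *Cd247* and *Ncr1* was not tested. Among 3 other Fc and Fc-like receptor genes (*Fcrl1*, *Fcrla* and *Trim21*) with at least 20 UMIs none was past 2-fold, beside the same 13.5%. *B2m*, the partner of FcRn, was at 3373 and 2324 CPM (log2 0.54). None of 8 cytokine receptors and factors was past 2-fold, again beside 13.5% of all genes, with *Ifngr1*, a chain of the interferon-gamma receptor, at a log2 ratio of −0.49, *Spi1* at −0.19 and *Irf8*, a myeloid transcription factor, at −0.11.

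Monocyte and dendritic markers also differed between the macrophage-like cells of the strains. The monocyte list summed to 135 CPM in NOD and 27.0 CPM in CD1, with 7 of 8 markers detected in both and *Chil3* at 0, and the dendritic list to 284 and 148 CPM with all 8 detected. Among the 290 NOD and 1351 CD1 macrophage-like cells without a UMI of any of these 16 markers, *Fcgr4* had a log2 ratio of 2.21 (1.90 to 2.52), *Fcgr2b* −1.53 (−2.55 to −0.66) and the activating to inhibitory ratio 2.18 (1.31 to 3.21). This comparison was chosen after seeing the data. Free RNA was read from droplets of 10 to 100 UMIs, in which *Fcgr4* was at 13.5 and 13.6 CPM, *Fcgr1* at 60.8 and 147 CPM and *Fcgr2b* at 20.0 and 23.7 CPM in NOD and CD1. The 14 salivary secretory genes, transcripts of gland epithelium, summed to 209 and 457 CPM in macrophage-like cells. The level of *Fcgr2b* in NOD macrophage-like cells was thus near that of the droplets without cells, while *Fcgr4* and *Fcgr1* were above it in both libraries. Droplet levels give the make-up of free RNA and not its share in a cell. In T-like and endothelial-like cells of NOD, *Fcgr2b* was at 0.793 and 0.346 CPM. The part of free RNA in the macrophage-like *Fcgr2b* was not tested.

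In NK-like cells the signalling chain *Fcer1g* was the member with the most UMIs. It was at 823 CPM in NOD (4177 UMIs) and 1176 CPM in CD1 (4789 UMIs), a log2 ratio of −0.51 (−0.57 to −0.45). At 2000 UMIs per cell 65.7% of 525 NOD cells (61.5% to 69.8%) and 84.1% of 359 CD1 cells (79.9% to 87.7%) held a UMI of it, with 50 and 9 shallower cells left out, against 2.55% and 5.68% of T-like cells. Without thinning the shares were 80.3% and 92.1%. *Fcgr3*, the CD16 of NK cells that triggers antibody-dependent killing, was at 19.3 CPM (98 UMIs) and 24.6 CPM (100 UMIs), a log2 ratio of −0.35 whose interval (−0.76 to 0.07) held 0. That reading depended on the cells taken, since *Fcgr3* had −0.75 (−1.08 to −0.42) with classes from clusters, −0.56 (−1.09 to −0.05) in ILC1-type cells (defined by their markers, as given next) and −0.084 (−0.52 to 0.36) with doublets removed. Droplets without cells held *Fcgr3* at 21.0 CPM in NOD and 93.8 CPM in CD1, above both NK-like values, and T-like cells at 1.59 and 5.13 CPM. The secretory genes put free RNA at 6.67% of UMIs in NOD and 2.64% in CD1 NK-like cells. With it subtracted, the log2 ratio of *Fcgr3* was −0.24, inside the main interval. This estimate gave an impossible share in NOD macrophage-like cells, and the part of free RNA was not tested otherwise. *Fcgr1* and *Fcgr4* had at most 11 UMIs in either library. Of the 5 members with at least 20 UMIs in these cells 1 was past 2-fold, *Fcgrt* with 20 UMIs in NOD and 6 in CD1 (log2 1.42, 0.05 to 3.03), beside 10.1% of 12027 genes. *Fcgr4* had 3 and 5 UMIs.

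The lower *Fcer1g* of NOD held in each subset of NK-like cells. The libraries differed in subsets, with 166 conventional and 326 ILC1-type cells by their markers in NOD and 29 and 312 in CD1. *Fcer1g* was at 846 and 1321 CPM in conventional cells (log2 −0.64, −0.81 to −0.47), at 847 and 1172 CPM in ILC1-type cells (log2 −0.47, −0.54 to −0.40) and at 686 and 1083 CPM in the cells of neither subset (log2 −0.66, −0.87 to −0.44). *Tyrobp* was also lower, at 681 and 941 CPM (log2 −0.47), whereas *Cd247*, the zeta chain, was higher, at 216 and 100.2 CPM (log2 1.11, 0.95 to 1.28). *Syk* was at 187 and 102 CPM (log2 0.88). The 8 T cell markers summed to 753 CPM in the NOD and 404 CPM in the CD1 NK-like cells, and the 8 NK markers to 5573 and 6601 CPM. The part of T cell transcripts in these values was not tested.

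B-like cells held the inhibitory receptor and almost none of the activating ones, as B cells are known to. The 857 NOD B-like cells held 367 *Fcgr2b* UMIs, 76.0 CPM (68.4 to 84.2), and 20 UMIs of the 3 activating receptors, a ratio of 0.0545 (0.0329 to 0.0854) against 40.0 in the macrophage-like cells of that library. At 2000 UMIs per cell 14.8% of 696 NOD B-like cells held an *Fcgr2b* UMI (12.2% to 17.7%), beside 0.163% of T-like cells, and 161 shallower cells were left out. Without thinning the share was 30.6%. The 7 CD1 B-like cells held 3 *Fcgr2b* UMIs (66.9 CPM), and the log2 ratio of 0.18 (−1.37 to 2.47) sets no direction. *Fcer1g* was at 8.90 CPM and *Fcgrt* at 19.7 CPM (95 UMIs) in NOD B-like cells, both below the NOD droplets without cells (248 and 22.9 CPM). Transcripts of the antibody ligands, the IgG constant regions *Ighg1*, *Ighg2b*, *Ighg2c* and *Ighg3*, came to 19 UMIs in macrophage-like cells of NOD and 3 in those of CD1, and no gene of the list reached 20 UMIs there.

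In endothelial-like cells *Fcgrt*, whose product is known from vessel walls, was the member with the most UMIs. It was at 76.0 CPM in NOD (69.0 to 83.4, 439 UMIs) and 82.7 CPM in CD1 (78.7 to 86.9, 1584 UMIs), a log2 ratio of −0.12 whose interval (−0.28 to 0.03) held 0, but −0.17 (−0.33 to −0.02) with classes from clusters. At 2000 UMIs per cell 12.7% of 853 NOD cells (10.5% to 15.1%) and 13.7% of 2379 CD1 cells (12.3% to 15.2%) held a UMI, with 146 and 380 cells left out and 0.217% of NOD T-like cells as background. Without thinning the shares were 28.4% and 36.6%. By vessel type *Fcgrt* was at 80.2 and 85.6 CPM in capillary, 37.0 and 49.1 CPM in arterial and 128 and 149 CPM in venous cells, with 13 UMIs in each library behind the last. The interval of every one of these ratios held 0, and none of the 4 members with at least 20 UMIs in endothelial-like cells was past 2-fold, beside 11.6% of 14238 genes. The partner *B2m* was at 2832 and 2488 CPM (log2 0.19). *Fcer1g* was at 8.65 and 15.3 CPM there (50 and 293 UMIs, log2 −0.82, −1.28 to −0.39), below its level of 248 and 508 CPM in the droplets without cells. *Fcgr2b*, a known scavenger receptor of liver sinusoids, had 2 and 14 UMIs. Fibroblast-like cells had 105 and 38 *Fcgrt* UMIs (200.1 and 286 CPM, log2 −0.51, −1.06 to 0.06), from 59 and 18 cells.

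Across 10 sums of a class in a library with at least 50 cells, the genes whose log2(CPM + 10) followed each member most closely were listed by Pearson's r among 12982 genes. For *Fcgr4* they were *Ccl12* (0.998), *Ccl2* (0.992), both chemokines for monocytes, and *Gm13710* (0.991). For *Fcgr1* they were *Tafa2*, *Gm46224* and *AW822252*, and for *Fcgr3* *Alox5ap* (0.988), which activates 5-lipoxygenase, *Arl11* and *Lst1*. *Fcgr2b*, split between macrophages and B cells, was followed by *Bhlhe41* (0.973), *Nudt8* and *Ppfibp2*. *Fcer1g* was followed by *Fuca2* (0.980), *Itgax* (CD11c, 0.979) and *Gpr160*, and *Fcgrt* by *Csad* (0.980), *Nipa1* and *Rab9*. These points come from 2 libraries and are dominated by the contrast between cell classes.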

How the data were processed

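The salivary gland suspensions of the 2 strains (NOD/ShiltJ and CD1) had been sequenced as 1 whole-transcriptome library each, both of label batch 1. The values are UMI counts per gene and barcode that the authors deposited as unfiltered matrices (52790319 UMIs in NOD, 56483149 in CD1). They come from Cell Ranger 8.0.0 per the file headers, and the submitters' processing notes name GRCm39. The stated digestion enzymes differ between the study's methods and the labels.

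The members, gene lists and comparisons were chosen with earlier results of these data known. Classes were set by marker UMIs, and counts were summed per class and library (Python 3.11.15, numpy 2.4.6, scipy 1.17.1). CPM have Poisson, log2 ratios conditional binomial, odds ratios Fisher and shares Clopper-Pearson intervals, all exact and at 95%. They cover counting error only. Intervals were tested on simulated counts that held counting error alone. That test cannot show how they would cover the spread between cells or mice. No test between strains was made. Genes with at least 20 UMIs and a log2 ratio of at least 1 either way counted as past 2-fold. Named genes were the 6 members, list genes past 2-fold and, added after their values were seen, others with a role stated in the text, and the 3 closest genes to each member. Doublets were kept and removed as an alternative (by Scrublet score in scanpy 1.11.5, with 338 barcodes taken out of NOD and 394 out of CD1). The other alternatives were a limit of 10% mitochondrial UMIs (37 genes), minima of 1000 UMIs and 500 genes, 4 markers with a lead of 3, classes from clusters, median-of-ratios scaling, equal weight per cell and subtraction of free RNA. The listed gene *Fcrls* had no row. Transcripts, promoters and their coordinates are of GRCm38.p6, which is not the build of the counts. Some genes of the lists are not reported here by name.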

Additional observations from a re-analysis of the deposited data

Results flagged for a closer look

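*Fcgrt* lay on opposite sides of equality in 2 cell classes. In NK-like cells it was higher in NOD, with 20 UMIs (3.94 CPM) against 6 UMIs (1.47 CPM) and a log2 ratio of 1.42 (0.05 to 3.03), whereas in macrophage-like cells the log2 ratio was −0.33 (−0.58 to −0.10). The droplets without cells held *Fcgrt* at 22.9 CPM in NOD and 46.0 CPM in CD1, above both NK-like values, so that no expression in NK-like cells is read from them. The macrophage-like values were 43.2 and 54.5 CPM. Between the droplets the log2 ratio was −1.01 (−1.37 to −0.65), the same direction as in macrophage-like cells. The part of free RNA in the macrophage-like ratio was not tested. The difference between the classes was not tested. Without thinning, 8 of 575 NOD NK-like cells (1.39%) and 5 of 368 CD1 NK-like cells (1.36%) held a UMI of *Fcgrt*, with overlapping intervals. The NK-like log2 ratio thus rests on several UMIs in few cells, which its interval does not cover. After drawing 2000 UMIs per cell, 0 of 525 NOD NK-like cells and 2 of 359 CD1 NK-like cells held a UMI of *Fcgrt*.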

How the results depend on the processing

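No paired analysis was possible because each strain has 1 library. The activating to inhibitory log2 ratio of 1.38 kept its direction under the 7 alternatives that were not void, at 1.79 with classes from clusters, 1.78 with equal weight per cell and 2.18 without monocyte or dendritic markers. Members past 2-fold numbered 2 in place of 1 under each of these 3, with *Fcgr2b* added at −1.38, −1.14 and −1.53. *Fcer1g* in macrophage-like cells turned to 0.11 with equal weight and 0.074 without those markers. *Fcgr3* in macrophage-like cells turned to −0.21 with clusters, and was −0.0070 with median-of-ratios scaling and −0.0027 with equal weight. With clusters the intervals of *Fcgr3* in macrophage-like and NK-like cells and of *Fcgrt* in endothelial-like cells no longer held 0. *Fcer1g* in NK-like cells ranged from −0.64 (equal weight) to −0.47, *Fcgr2b* in B-like cells from 0.19 to 0.65, and *Fcgrt* in endothelial-like cells from −0.19 to 0.047 (free RNA subtracted). The secretory genes put free RNA at 116% of UMIs in NOD macrophage-like cells, an impossible share that was capped at 50%, so that this alternative is void there and supports nothing (it gave 1.91 for the activating to inhibitory ratio, 2 members past 2-fold and 0.44 for *Fcer1g*). With 1 UMI in each library as the filter, 22.3%, 18.7% and 20.8% of genes were past 2-fold in macrophage-like, NK-like and endothelial-like cells, in place of 13.5%, 10.1% and 11.6%. Shares of cells with a UMI fell with depth, to 27.7% and 18.0% for *Fcgr1* and 7.87% and 1.73% for *Fcgr4* at 500 UMIs per macrophage-like cell. Those of *Fcgr2b* fell to 1.02% (0.41% to 2.09%) and 1.66% (1.23% to 2.19%), with overlapping intervals. The cause of these shifts was not tested.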

Other observations

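Barcodes placed in no class met no marker list or lacked the lead over another list, and numbered 1333 in NOD and 806 in CD1. They held the members at lower levels in NOD, but the share of all genes lower there was not computed. No result about the members is read from this. *Fcgr1* was at 32.1 CPM in NOD and 84.0 CPM in CD1, *Fcgr3* at 18.1 and 68.8 CPM, *Fcgr4* at 7.52 and 18.1 CPM, *Fcgr2b* at 8.23 and 17.5 CPM, *Fcer1g* at 434 and 514 CPM and *Fcgrt* at 12.3 and 32.1 CPM. The droplets without cells held *Fcgr1* (60.8 and 147 CPM), *Fcgr3* (21.0 and 93.8), *Fcgr2b* (20.0 and 23.7) and *Fcgrt* (22.9 and 46.0) at higher levels in both libraries. Macrophage-like cells made up 10.6% of kept barcodes in NOD and 41.2% in CD1.

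In the 91 CD1 T-like cells *Fcer1g* was at 101 CPM (79 UMIs) and in the 1886 NOD T-like cells at 36.0 CPM (499 UMIs), a log2 ratio of −1.49 (−1.84 to −1.13). Both were below the level in NK-like cells of the same library and below the 248 CPM (NOD) and 508 CPM (CD1) of the droplets without cells. The UMIs lay in 11 of the 91 CD1 cells and 110 of the 1886 NOD cells, a clustering that the interval does not cover. The 8 NK markers summed to 982 CPM in the CD1 and 490 CPM in the NOD T-like cells. The part of NK transcripts in these *Fcer1g* values was not tested.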
